A study of Mus with 18 samples.

Results

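The genes of fatty acid uptake and mitochondrial oxidation studied here, 10 in number, were followed through both RNA-seq experiments of the study, one in C2C12 cells and one in mouse gastrocnemius muscle. The members were picked by symbol from the deposited tables, 10 of the 21401 symbols listed in each, and all 10 were found in both. They are Cd36 and Fabp3 (uptake), Cpt1b and Cpt2 (carnitine shuttle), Acadvl, Acadl and Acadm (acyl-CoA dehydrogenases), Hadha and Hadhb (trifunctional protein) and Ucp3 (an uncoupling protein). The 18 libraries fall into 2 experiments of 9, in 3 groups of 3 libraries (control, LPS and LPS-MIC-1). LPS (lipopolysaccharide) is a bacterial cell wall component that provokes inflammation, and MIC-1 is moringa isothiocyanate-1, a plant compound that the study gave to ask whether it dampens that response.

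C2C12 is a mouse myoblast line, labelled wild type, here a vehicle control, LPS at 1 μg/mL, or LPS at 1 μg/mL with MIC-1 for 24 h. The labels give MIC-1 at 10 μM in the cells, whereas the study's text gives 1 μM. The labels call the vehicle of both controls saline, whereas the study's text names ethanol for the cells and DMSO for the mice. The muscle came from wild-type male C57BL/6 mice: a vehicle control, LPS (10 mg/kg, intraperitoneal), or LPS after MIC-1 (80 mg/kg in DMSO by gavage daily for 3 days), with collection 16 h after LPS. Ages are not given, nor whether the LPS mice received the gavage vehicle. The study randomized more mice than there are muscle libraries, and whether a muscle library came from a single mouse or a pool is not stated. The labels do not say whether the cell replicates were separate cultures. The study's statistics section speaks of repeated experiments without naming the sequencing, so p-values for the cells may measure only technical spread.

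Muscle takes up long-chain fatty acids with the help of membrane and cytosolic binding proteins, links them to coenzyme A, and passes them into mitochondria as carnitine esters. In the matrix, β-oxidation shortens the chain in repeated rounds, each a dehydrogenation, a hydration, a second dehydrogenation and a thiolytic cleavage, and feeds electrons and acetyl-CoA to the respiratory chain and the citric acid cycle. Slow and oxidative fibres carry more of this machinery than fast glycolytic fibres, and many of its genes are targets of the nuclear receptors PPARα and PPARδ.

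The muscle libraries carried the muscle genes they should, with Acta1 (skeletal actin) between 34109 and 56820 FPKM. Their groups were not alike in all such genes. Genes of slow and oxidative fibres summed to between 217 and 230.3 FPKM in LPS-MIC-1 and to 51.0 FPKM or less in control and LPS. The part of this difference in the members' values was not tested. FPKM is a gene's fragment count divided by its transcript length and by the library's depth. The C2C12 libraries did not all match their label. Those labelled control and LPS had the macrophage marker Lyz2 at between 1786 and 4761 FPKM, and Des (desmin), a myogenic gene, at 1.19 FPKM or less, whereas those labelled LPS-MIC-1 had Des between 347 and 488 FPKM and Lyz2 between 0.616 and 48.8 FPKM. All 11 macrophage genes measured fell from LPS to LPS-MIC-1, and all 8 myogenic genes tested rose. A C2C12 difference that involves LPS-MIC-1 therefore cannot be told apart from a difference in cell identity. Relative depth, read from the size of the smallest FPKM steps with control replicate 1 as 1, was 0.467 in C2C12 LPS-MIC-1 replicate 3, 0.719 in its replicate 1 and between 0.835 and 1.03 in the other C2C12 libraries, and between 0.986 and 1.11 in muscle.

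In gastrocnemius muscle, the members were all somewhat higher after LPS. After LPS-MIC-1, 6 of them overlapped the control libraries, at least in part, and did not pass against control. Acadl, Cd36 and Hadha remained 1.15- to 1.48-fold above control, and Ucp3 stood 12.2-fold above it. Against control, 9 of the 10 rose in LPS and none fell (limma on log2(FPKM + 0.1), adjusted p under 0.05), where 15.7% of all genes passed and 8.25% of all 9475 genes tested rose and 7.48% fell. The number of members passing ran from 6 to 10 when single libraries were left out. No member changed by 2-fold (1.25% of all genes did). The member that did not pass, Hadhb, had an adjusted p of 0.0571. In all 10 the 3 LPS libraries lay above the 3 control libraries, a pattern shown by 18.8% of all genes. The median log2 change was 0.25 for the members and 0.01 for all genes tested.

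**Figure D1:**
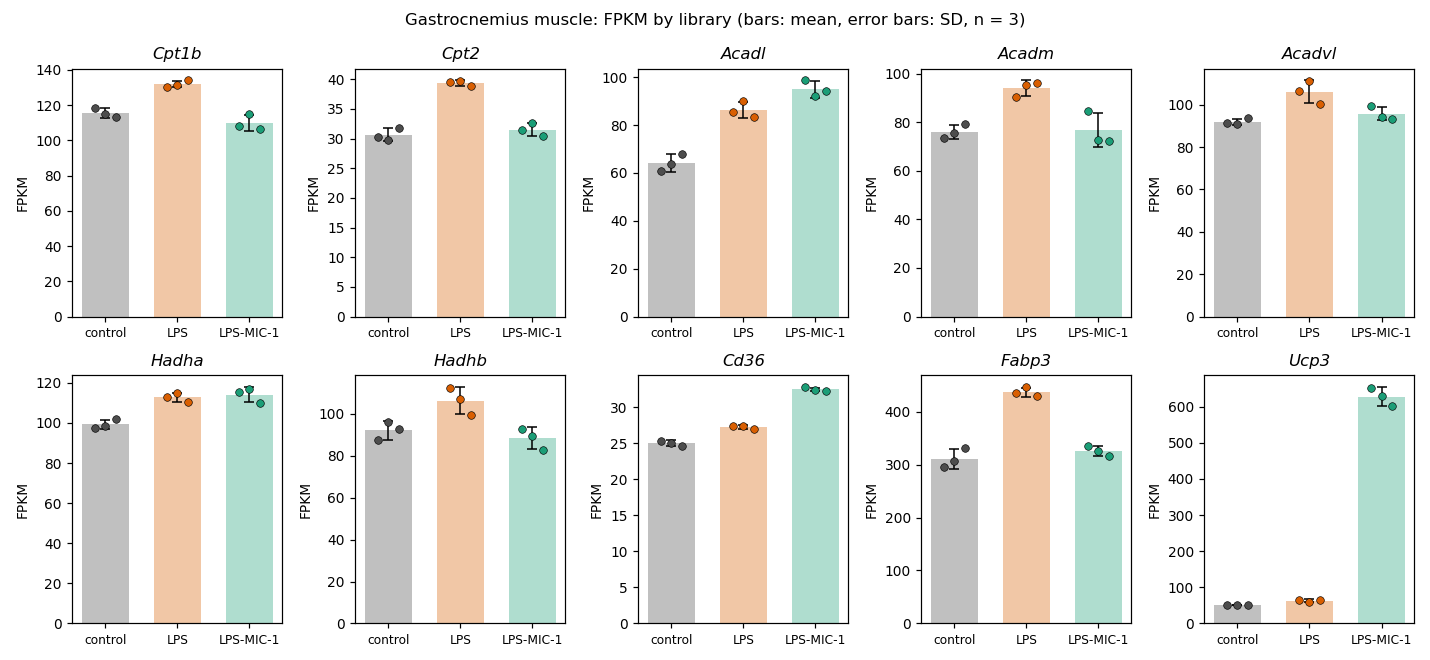
FPKM of the 10 members in the 9 gastrocnemius libraries (points, single libraries). Bars are group means and error bars are SD (n = 3 libraries). Each panel has its own linear axis from 0. Every member is higher in the 3 LPS libraries than in the 3 control libraries, and Ucp3 lies between 602 and 653 FPKM in LPS-MIC-1 against 65.8 FPKM or less elsewhere.

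The LPS-MIC-1 group was compared with LPS to ask what MIC-1 changed. Of the 10 members 9 passed (56.5% of all genes did), 3 of them higher (Ucp3, Cd36 and Acadl, against 28.3% of all genes) and 6 lower (Fabp3, Cpt2, Acadm, Cpt1b, Hadhb and Acadvl, against 28.2%). Only Ucp3 passed 2-fold, a change that 15.1% of all genes reached. Without LPS-MIC-1 replicate 3, in which Lyz2 was at 78.3 FPKM against 5.27 and 3.93 in its 2 replicates, 7 members passed. Against control, 4 of 10 passed in LPS-MIC-1 (Ucp3, Acadl, Cd36 and Hadha, all higher), where 58.5% of all genes passed (30% higher and 28.5% lower), and Ucp3 alone passed 2-fold (15.5% of all genes did). The 3 comparisons of an experiment share their groups of libraries and are not independent. In bulk muscle, fewer cells of a type and less RNA per cell cannot be told apart.

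Of the uptake proteins, Cd36 (fatty acid translocase) brings long-chain fatty acids across the cell membrane in muscle fibres, capillary endothelium and macrophages. In muscle it was at 25.3, 25.1 and 24.5 FPKM in control, 27.4, 27.4 and 27.0 FPKM in LPS and 32.7, 32.3 and 32.3 FPKM in LPS-MIC-1. The 3 groups formed 3 separate steps with no overlap, each with an SD of 0.396 FPKM or less. The rise in LPS was 1.09-fold (log2 0.13 ± 0.03 SE, adjusted p = 0.0304 by limma), and this call was lost in 10 of 18 alternatives, among them each of the 6 that left out a control or LPS library (adjusted p between 0.0587 and 0.0952). From LPS to LPS-MIC-1 it rose 1.19-fold (log2 0.25 ± 0.03, limma adjusted p = 0.000193), and the call held in all 18.

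The endothelial list moved in the other direction with LPS: 8 of 8 genes tested were lower than in control (7.48% of all genes were). Its summed level was between 179 and 183 FPKM in control, 119 and 121 FPKM in LPS and 175 and 194 FPKM in LPS-MIC-1. The sum hides a split in LPS-MIC-1. Of the 8 genes, 5 were higher and 2 lower than in LPS, and 3 were higher and 4 lower than in control. Macrophage genes summed to between 25.3 and 28.6 FPKM in control, 30.0 and 32.3 with LPS and 48.2 and 207 with LPS-MIC-1, and none of the lists' part in the level of Cd36 was tested.

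Fabp3 is the heart and muscle fatty acid binding protein, which carries fatty acids through the cytosol. It stood at 295, 306 and 331 FPKM in control, 434, 446 and 429.8 FPKM in LPS and 335, 326 and 317 FPKM in LPS-MIC-1. LPS libraries were all above the other 6, and control and LPS-MIC-1 overlapped. The rise was 1.41-fold (log2 0.49 ± 0.04 SE, limma adjusted p = 0.000251), the largest of the 10 members on the log2 scale in that comparison. From LPS to LPS-MIC-1 it fell by 0.42 on the log2 scale (SE 0.04, limma adjusted p = 6.61e-05), to 1.05 times the control mean, a difference from control that did not pass (log2 0.07, 95% interval -0.03 to 0.17).

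In the carnitine shuttle, Cpt1b is the muscle isoform of carnitine palmitoyltransferase 1 on the outer mitochondrial membrane, the step that malonyl-CoA inhibits. Its levels were 119, 115 and 113 FPKM in control, 130.4, 132 and 134 FPKM in LPS and 108, 115 and 106 FPKM in LPS-MIC-1. All LPS libraries were higher than the other 6, while LPS-MIC-1 and control overlapped. It rose 1.14-fold in LPS (log2 0.19 ± 0.04 SE, limma adjusted p = 0.00940) and fell by 0.27 (SE 0.04) from LPS to LPS-MIC-1 (limma adjusted p = 0.000324).

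Cpt2 converts the carnitine esters back to acyl-CoA on the inner membrane. It was at 30.2, 29.8 and 31.8 FPKM in control, 39.5, 39.7 and 38.8 FPKM in LPS and 31.5, 32.6 and 30.3 FPKM in LPS-MIC-1. The pattern was that of Fabp3 and Cpt1b, LPS above and the other groups overlapping. The rise was 1.28-fold (log2 0.36 ± 0.04 SE, limma adjusted p = 0.000836), and the fall from LPS to LPS-MIC-1 was to 0.801 times (log2 -0.32 ± 0.04, limma adjusted p = 0.000227).

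The acyl-CoA dehydrogenases take the first step of each round and differ in the chain length they accept, very long (Acadvl), long (Acadl) and medium (Acadm). Acadvl was at 91.1, 91.0 and 93.5 FPKM in control, 107, 111 and 100.4 FPKM in LPS and 99.4, 94.4 and 93.4 FPKM in LPS-MIC-1. Acadm was at 73.6, 75.3 and 79.3 FPKM in control, 90.3, 95.4 and 96.3 FPKM in LPS and 84.7, 72.8 and 72.3 FPKM in LPS-MIC-1. Both were highest in LPS with no overlap, although the margin of Acadvl between LPS and LPS-MIC-1 was about 1 FPKM. Acadvl rose by log2 0.21 ± 0.04 SE in LPS and fell by 0.15 in LPS-MIC-1 against LPS (limma adjusted p = 0.0148 and 0.0182), but the first call was lost without control replicate 2 or LPS replicate 1 (adjusted p of 0.0508 and 0.0524) and the second without LPS replicate 1 or 2 or LPS-MIC-1 replicate 2 or 3 (between 0.0532 and 0.0633). Acadm rose by log2 0.30 ± 0.06 in LPS and fell by 0.30 from LPS to LPS-MIC-1 (limma adjusted p = 0.0156 and 0.00436). Its rise was lost without control replicate 1 or 2 or LPS replicate 2 or 3 (adjusted p between 0.0508 and 0.0567).

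Acadl followed another course. It was at 60.9, 63.6 and 68.0 FPKM in control, 85.6, 89.9 and 83.2 FPKM in LPS and 98.7, 92.0 and 94.0 FPKM in LPS-MIC-1. The groups did not overlap, and LPS-MIC-1 was the highest of the 3. The rise in LPS was 1.34-fold (log2 0.43 ± 0.05 SE, limma adjusted p = 0.00101). The further rise of 1.10-fold from LPS to LPS-MIC-1 (limma adjusted p = 0.0445) was lost in 9 of 18 alternatives (without control replicate 2, LPS replicate 1 or 3, or LPS-MIC-1 replicate 1 or 3, adjusted p between 0.0624 and 0.138), whereas the rise of 1.48-fold from control to LPS-MIC-1 (limma adjusted p = 2.48e-05) held in all 18. As a share of the summed FPKM of Acadl and Acadvl, Acadl made up 41.1 ± 1.01% in control, 44.9 ± 0.415% with LPS and 49.8 ± 0.397% with LPS-MIC-1 (SD, n = 3), with no overlap between the groups.

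For the trifunctional protein, Hadha and Hadhb are neighbouring genes for the α and β subunits of the complex that hydrates, oxidises and cleaves long-chain intermediates. Hadha was at 97.3, 98.6 and 102 FPKM in control, 113, 115 and 110.4 FPKM in LPS and 115, 117 and 109.8 FPKM in LPS-MIC-1. Hadhb was at 87.4, 96.2 and 92.7 FPKM in control, 112, 107 and 99.5 FPKM in LPS and 92.9, 89.6 and 82.7 FPKM in LPS-MIC-1. Hadha thus stayed at its LPS level in LPS-MIC-1, with overlapping libraries, and Hadhb in LPS-MIC-1 overlapped the control libraries. Hadha rose 1.14-fold in LPS (limma adjusted p = 0.00904), did not pass between LPS-MIC-1 and LPS (log2 0.02, 95% interval -0.06 to 0.09), and was 1.15-fold above control in LPS-MIC-1 (limma adjusted p = 0.00123). Hadhb fell by 0.27 (SE 0.06) from LPS to LPS-MIC-1 (limma adjusted p = 0.00590).

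The ratio of Hadha to Hadhb FPKM was 1.08 ± 0.0470 in control, 1.06 ± 0.0517 with LPS and 1.29 ± 0.0456 with LPS-MIC-1 (SD, n = 3). LPS-MIC-1 did not overlap with either group (2-sided exact permutation p = 0.1 against each, the smallest that 3 against 3 allows), while control and LPS did (exact p = 0.6). An annotated microRNA gene lies within Hadhb and another within Acadvl, and Fabp3 overlaps Zcchc17 in the RefSeq gene table. Cpt1b overlaps Gm44502 there, and Acadl overlaps Gm15793 and Gm27934, genes without FPKM values of their own in muscle. Whether the quantification used strand is not given in the sources used here, so these values could include reads of the overlapping genes.

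The uncoupling protein gene Ucp3 encodes a mitochondrial carrier of skeletal muscle and brown fat whose expression rises with fatty acid supply. It was at 51.2, 51.7 and 51.5 FPKM in control, 63.9, 59.0 and 65.8 FPKM in LPS and 653, 631 and 602 FPKM in LPS-MIC-1. The rise in LPS was 1.22-fold (log2 0.29 ± 0.05 SE, limma adjusted p = 0.00428). From LPS to LPS-MIC-1 it rose 9.99-fold (log2 3.32, 95% interval 3.21 to 3.42, limma adjusted p = 7.17e-10) and from control 12.2-fold (log2 3.61, limma adjusted p = 3.36e-10). In the order of fold changes from LPS to LPS-MIC-1, Ucp3 was number 144 of 9475 genes.

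Among the 10 members, the order of FPKM in control was Fabp3, Cpt1b, Hadha, Hadhb, Acadvl, Acadm, Acadl, Ucp3, Cpt2 and Cd36, where only Hadhb and Acadvl had overlapping libraries as neighbours. The order in LPS was the same, with Hadha, Hadhb and Acadvl overlapping in turn. In LPS-MIC-1 Ucp3 moved from eighth to the top (628 ± 25.5 FPKM, SD, n = 3), above Fabp3 (326 ± 9.17 FPKM), and Cd36 stood level with Cpt2. Among all 9475 genes, Ucp3 ranked 1037 by mean FPKM in control, 893 with LPS and 104 with LPS-MIC-1, whereas Cpt1b ranked 522, 465 and 573.

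**Figure D2:**
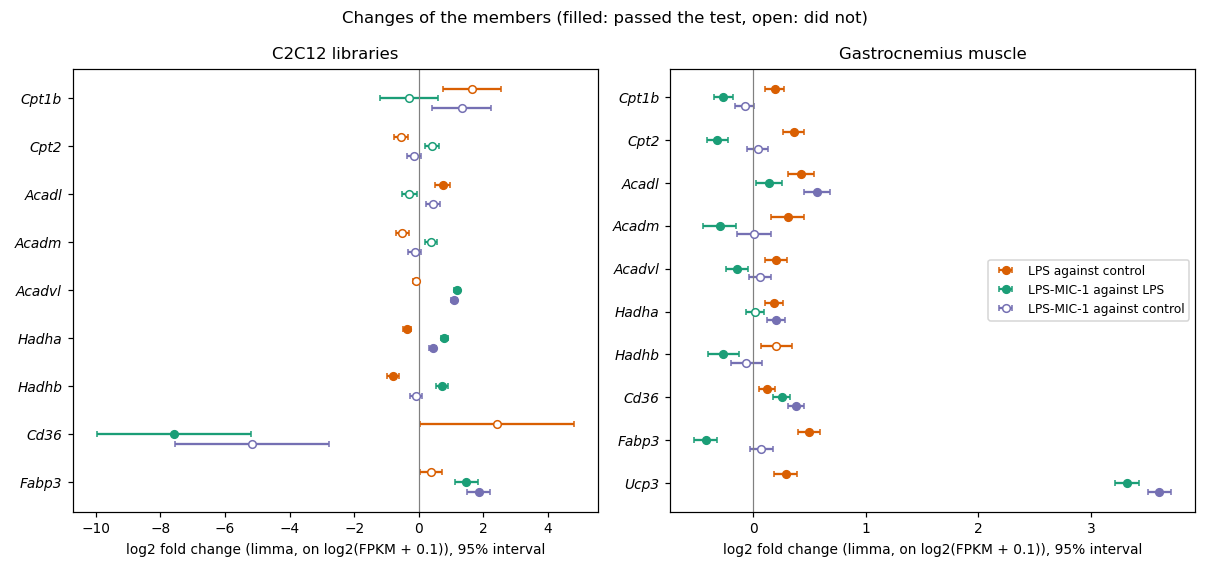
Log2 fold changes of the members in each of the 3 comparisons, for the C2C12 libraries (left) and gastrocnemius muscle (right), with 95% intervals from limma on log2(FPKM + 0.1), fitted separately in the 2 experiments; filled points passed the test (adjusted p under 0.001 in C2C12 and under 0.05 in muscle), open points did not. In muscle all changes but those of Ucp3 in LPS-MIC-1 lie within 1 log2 unit of 0, and in C2C12 Cd36 has the widest intervals. Ucp3 was not tested in C2C12.

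Other genes of the same pathway were counted from 4 lists of 36 genes in all. The shares of all genes tested stand beside these counts and those of the later muscle lists. In LPS against control 8.25% of all genes rose and 7.48% fell. From LPS to LPS-MIC-1 28.3% rose and 28.2% fell. In muscle LPS against control, 8 of 36 rose, 3 fell and 25 did not pass. Those that rose most in their lists were Acsl1, which links fatty acids to coenzyme A (40.7 ± 0.976 to 58.6 ± 3.10 FPKM), Etfdh, which passes the electrons of the dehydrogenases to ubiquinone (23.6 ± 1.61 to 31.8 ± 0.425 FPKM), the thiolase Acaa2 (48.4 ± 1.37 to 63.0 ± 2.53 FPKM) and the carnitine-acylcarnitine carrier Slc25a20 (23.0 ± 1.14 to 29.1 ± 1.09 FPKM). Pdk4, the kinase that shuts pyruvate dehydrogenase and so spares glucose, fell from 34.8 ± 0.990 to 25.8 ± 1.12 FPKM (limma adjusted p = 0.000301). Acsl3 fell as well, to 0.747 times control (limma adjusted p = 0.00340).

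In muscle LPS-MIC-1 against LPS, 13 of the 36 rose, 14 fell and 9 did not pass. The 5 genes of entry control and uncoupling held the largest rises, 4 of them higher and none lower. Pdk4 was at 24.9, 25.5 and 27.1 FPKM in LPS and 1092, 1071 and 1047 FPKM in LPS-MIC-1 (41.4-fold, log2 5.37 ± 0.04 SE, limma adjusted p = 2.47e-11). Ucp2, the neighbour of Ucp3 in the genome, was at 7.50, 7.48 and 6.66 FPKM in LPS and 62.7, 65.4 and 79.0 FPKM in LPS-MIC-1 (9.57-fold, limma adjusted p = 8.61e-07). Both were separate from every LPS and control library.

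The share of Ucp3 in the summed FPKM of Ucp3 and Ucp2 was 88.8 ± 2.26% in control, 89.7 ± 1.04% with LPS and 90.1 ± 1.49% with LPS-MIC-1 (SD, n = 3), with overlapping libraries, although the 2 genes rose 9.99- and 9.57-fold from LPS to LPS-MIC-1. Of the 17 other matrix genes, 5 rose and 10 fell from LPS to LPS-MIC-1. The largest rise was Acot2, a mitochondrial thioesterase that releases fatty acids from coenzyme A (4.44 ± 0.165 to 28.2 ± 2.18 FPKM, limma adjusted p = 1.32e-06), and Acad10 fell to 0.529 times. Acsl3 fell to 0.323 times, the fatty acid transporter Slc27a1 rose 2.11-fold, and Crat, which makes acetylcarnitine, fell to 0.901 times (limma adjusted p = 0.0439, with overlapping libraries).

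**Figure D3:**
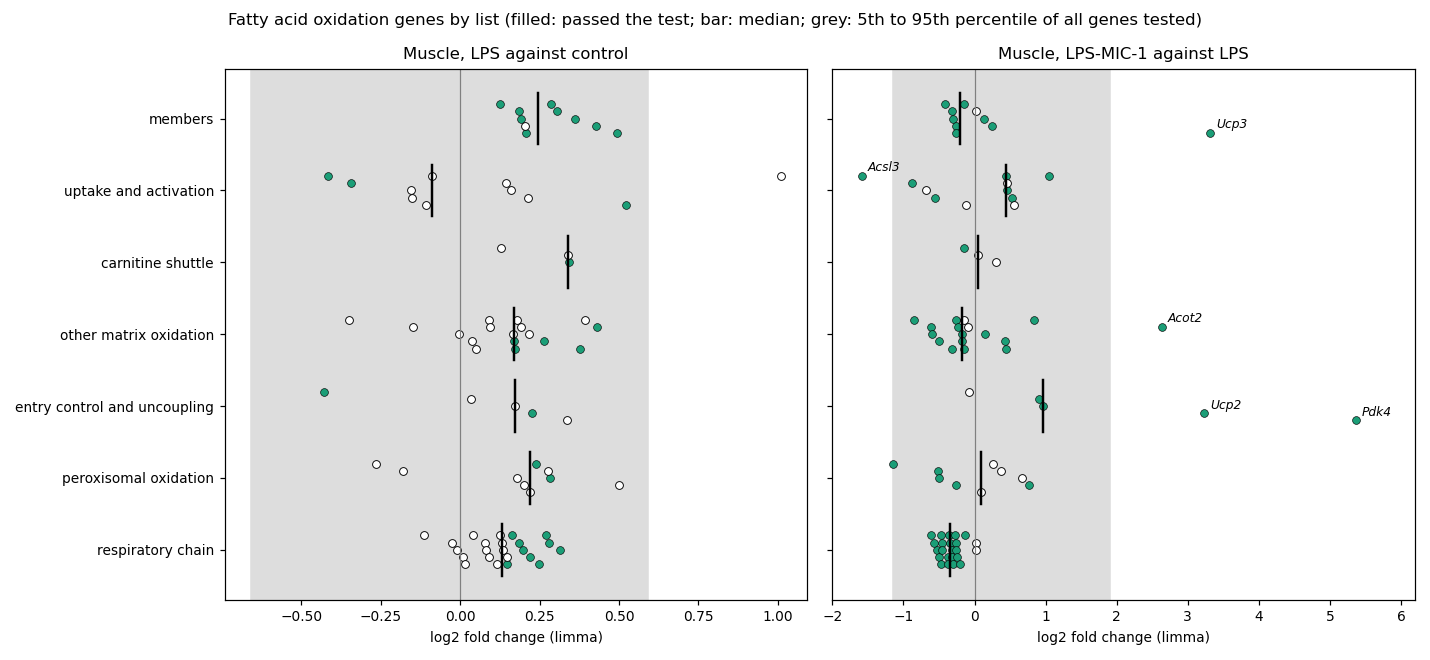
Log2 fold changes in gastrocnemius muscle of the 10 members and of 6 other gene lists, for LPS against control (left) and LPS-MIC-1 against LPS (right); each point is a gene, filled where it passed the test, the black bar is the list's median and the grey band holds the middle 90% of all genes tested. The 10 members lie right of 0 on the left panel, and on the right panel Pdk4, Ucp3, Ucp2 and Acot2 lie far to the right of the rest of the lists while most respiratory chain genes lie left of 0.

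Beside the members, 23 genes of the respiratory chain were 9 higher and none lower in LPS against control, and none higher and 21 lower in LPS-MIC-1 against LPS, the largest falls being Cyc1 (413 ± 2.54 to 270 ± 13.8 FPKM) and Cycs (209.7 ± 9.89 to 142 ± 12.3 FPKM). Of the nuclear regulators, 5 could be tested and none passed in LPS against control. In LPS-MIC-1 against LPS, Ppara (the gene of PPARα) rose 4.97-fold from a low level (0.707 ± 0.112 to 3.52 ± 0.314 FPKM, limma adjusted p = 1.62e-05), and Ppargc1a, the coactivator of mitochondrial genes, fell to 0.426 times (3.94 ± 0.224 to 1.68 ± 0.468 FPKM, limma adjusted p = 0.00442). Of the 9 peroxisomal genes 1 rose and 4 fell, Abcd2 the most. Of the 8 genes of fatty acid synthesis tested, 3 rose, Scd1 (2.04-fold) and Acly (1.87-fold) the most, and none fell.

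Genes of slow and oxidative fibres also differed between the muscle groups. Their summed FPKM was between 44.2 and 49.7 in control, 46.6 and 51.0 with LPS and 217 and 230.3 with LPS-MIC-1, and from LPS to LPS-MIC-1 9 of 10 rose and 1 fell. The 3 with the highest mean FPKM over all 9 libraries were Myh2 (31.7 ± 0.520 FPKM in LPS-MIC-1 against 23.1 ± 0.468 in LPS), Myl2 (49.3 ± 4.30 against 0.357 ± 0.0881) and Myl3 (42.3 ± 2.68 against 15.5 ± 0.824). Of 15 genes common to muscle fibres 2 rose and 10 fell, and Acta1 stood at 37248 ± 2788 FPKM in LPS-MIC-1 against 53508 ± 1510 in LPS. The adipocyte list was led by Plin4, a lipid droplet protein that muscle also makes (38.1 ± 0.335 to 249 ± 12.9 FPKM). Cfd, another gene of that list, averaged 8.43 ± 2.26 FPKM in LPS-MIC-1, against 3.61 ± 1.72 with LPS and 2.15 ± 1.70 without either. Of the 2 adipocyte genes tested, 1 passed as higher in LPS-MIC-1 against LPS, and 2 did against control. Adipoq, which defines adipocytes, was at 0.777 FPKM or less in all 9 libraries, with overlapping groups. The parts of fibre composition and of adipocytes in the members' values were not tested.

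The muscle genes most like the members were sought by the Pearson r, over the 9 libraries, with the mean standardized level of the 10 members. Of 9465 other genes the first 5 were Ghitm (r = 0.986), a mitochondrial inner membrane protein, Mapkapk2 (r = 0.985), Arih1 (r = 0.978), Mb, myoglobin (r = 0.977), and Myh1, the fast IIx myosin (r = 0.975). Each was highest in LPS and between control and LPS in LPS-MIC-1. Mb was at 772 FPKM in control, 1413 FPKM in LPS and 1175 FPKM in LPS-MIC-1, and Myh1 at 79.1, 306 and 172 FPKM. All points share 3 groups of libraries.

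In the C2C12 libraries the members were fewer and more varied. Ucp3 did not exceed 0.0949 FPKM in any of the 9 libraries and was not tested. Of the other 9, in LPS against control 1 rose (Acadl) and 2 fell (Hadha and Hadhb) at an adjusted p under 0.001, where 37.8% of the 10877 genes tested passed, 18.6% higher and 19.3% lower. No member passed 2-fold (20.9% of all genes did). Leaving out any 1 control or LPS library left 1 member, Hadhb, and with only the 6 libraries compared 7 passed.

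From LPS to LPS-MIC-1, 4 members rose (Acadvl, Fabp3, Hadha and Hadhb) and 1 fell (Cd36), where 66.5% of all genes passed, 32.8% higher and 33.7% lower. Acadvl, Fabp3 and Cd36 passed 2-fold, a change shown by 49.9% of all genes. From control to LPS-MIC-1, 3 rose (Acadvl, Fabp3 and Hadha) and none fell, where 60.5% of all genes passed, 29.9% higher and 30.5% lower. Acadvl and Fabp3 passed 2-fold, as 43.3% of all genes did. Without LPS-MIC-1 replicate 3, in which the intestinal genes Krt8 and Fabp2 reached 3.12 and 1.22 FPKM, those 2 counts of members passing were 6 and 5. Without LPS-MIC-1 replicate 1 they were 5 and 4.

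**Figure D4:**
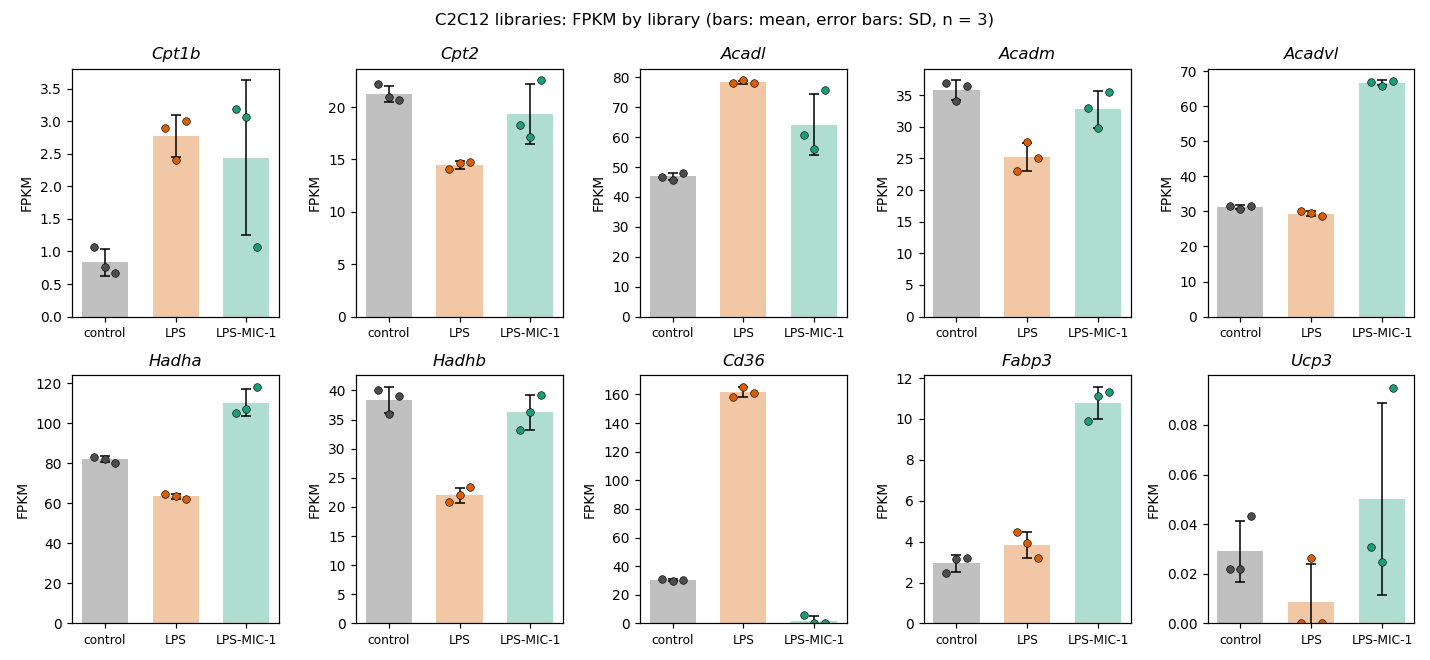
FPKM of the 10 members in the 9 C2C12 libraries (points, one per library; bars, group mean; error bars, SD, n = 3; each panel has its own linear axis from 0). Cd36 is highest in LPS, between 158 and 165 FPKM, and at 5.67 FPKM or less in LPS-MIC-1; Acadvl and Fabp3 are highest in LPS-MIC-1; Ucp3 is near 0 throughout.

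Cd36 had the widest range of the members there. It was at 31.0, 29.7 and 30.3 FPKM in control, 158, 165 and 161 FPKM in LPS and 5.67, 0.106 and 0.401 FPKM in LPS-MIC-1. The groups did not overlap, and replicate 1 of LPS-MIC-1 was well above its 2 replicates. The same library had the highest Lyz2 of its group, 48.8 FPKM against 1.87 and 0.616, and a macrophage list median of 13.1 FPKM.

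The mean of Cd36 was 5.33-fold higher in LPS than in control (log2 2.41 ± 1.03 SE), a difference that did not pass with a spread shared over all 9 libraries (limma adjusted p = 0.0731) and passed without LPS-MIC-1 replicate 1 (limma adjusted p = 0.000220) or with the 6 libraries alone (limma adjusted p = 3.66e-09). The fall from LPS to LPS-MIC-1 was by 7.59 on the log2 scale (95% interval -9.97 to -5.20, limma adjusted p = 0.000157), and by 8.98 without replicate 1. With only the 6 libraries it did not pass (limma adjusted p = 0.00139). All 11 macrophage genes tested fell from LPS to LPS-MIC-1. From control to LPS, with the spread shared over all 9 libraries, 1 passed as higher and none as lower. Levels still differed without overlap in both directions, for instance Lyz2 (4694 ± 85.5 to 1838 ± 45.4 FPKM) and Itgam (61.5 ± 1.04 to 149 ± 2.00 FPKM). The summed level of the macrophage genes was between 10607 and 10653 FPKM in control, 7789 and 8034 in LPS and 79.9 and 286 in LPS-MIC-1. Their part in the values of Cd36 was not tested.

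**Figure D5:**
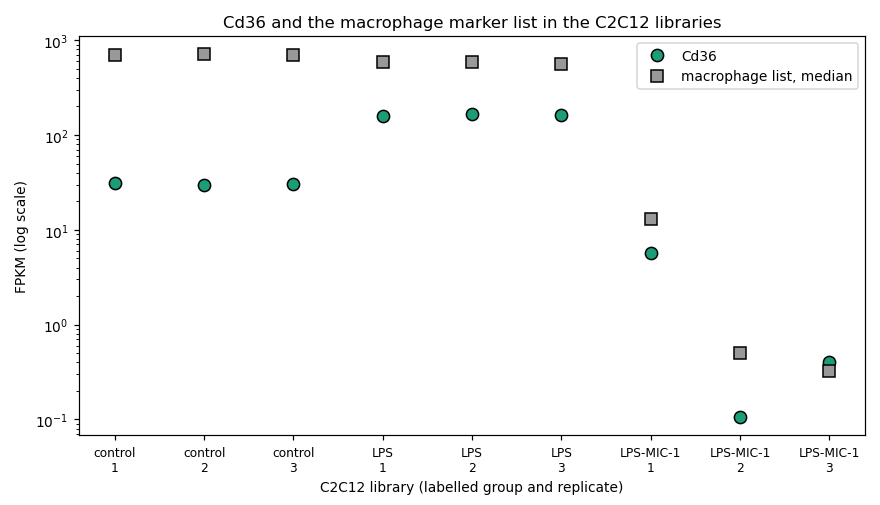
FPKM of Cd36 (circles) and the median FPKM of 11 macrophage genes (squares) in each C2C12 library, on a log scale. The macrophage median is between 559 and 709 FPKM in the control and LPS libraries and between 0.320 and 13.1 FPKM in LPS-MIC-1, where both measures are highest in replicate 1.

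Fabp3 was at 2.47, 3.14 and 3.20 FPKM in control, 4.45, 3.93 and 3.19 FPKM in LPS and 9.88, 11.1 and 11.3 FPKM in LPS-MIC-1. Control and LPS overlapped, and all LPS-MIC-1 libraries were above them. It rose 2.79-fold from LPS to LPS-MIC-1 (log2 1.47 ± 0.15 SE, limma adjusted p = 2.89e-05). Its relatives were more abundant in some groups: Fabp5 was at 252 ± 9.95 FPKM in control, 610 ± 10.8 with LPS and 47.8 ± 12.6 with LPS-MIC-1, and Fabp4, a form found in adipocytes and macrophages among other cells, at 2.00 ± 0.311, 69.5 ± 5.73 and 2.45 ± 1.59 FPKM. In muscle Fabp4 was at 287 ± 1.94 FPKM in control, 227 ± 11.1 with LPS and 325 ± 14.3 with LPS-MIC-1. Fabp3 made up 51.9 ± 1.30% of the summed Fabp3 and Fabp4 FPKM there in control, 65.8 ± 1.34% with LPS and 50.1 ± 0.407% with LPS-MIC-1 (SD, n = 3). The cells that gave the Fabp4 level in muscle were not tested.

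Cpt1b was low in these libraries, at 1.07, 0.765 and 0.666 FPKM in control, 2.90, 2.41 and 3.00 FPKM in LPS and 3.18, 3.07 and 1.07 FPKM in LPS-MIC-1. LPS lay above control without overlap, but the difference did not pass (log2 1.64 ± 0.39 SE, limma adjusted p = 0.00635). The LPS-MIC-1 library at 1.07 FPKM was replicate 3, the shallowest of the 9. Cpt1a, the liver isoform, was higher than Cpt1b in every C2C12 library, and Cpt1b made up 3.23 ± 0.880% of the 2 in control, 20.7 ± 1.77% with LPS and 21.9 ± 8.30% with LPS-MIC-1. In muscle, where the table was normalized separately, its share was 98.2% or more in all 9 libraries.

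Cpt2 was at 22.2, 21.0 and 20.7 FPKM in control, 14.1, 14.6 and 14.8 FPKM in LPS and 18.3, 17.1 and 22.5 FPKM in LPS-MIC-1. LPS was the lowest group without overlap, yet neither LPS against control (log2 -0.55 ± 0.10 SE, limma adjusted p = 0.00134) nor LPS-MIC-1 against LPS (log2 0.40 ± 0.10, limma adjusted p = 0.00471) passed.

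Acadm behaved alike in value, with 36.8, 34.0 and 36.5 FPKM in control, 23.1, 27.5 and 25.0 FPKM in LPS and 33.0, 29.7 and 35.5 FPKM in LPS-MIC-1, and an adjusted p by limma of 0.00102 for LPS against control, just outside the threshold. Acadl was at 46.7, 45.8 and 48.1 FPKM in control, 78.1, 79.0 and 78.2 FPKM in LPS and 60.7, 56.2 and 75.8 FPKM in LPS-MIC-1. It was the only member called higher over all 9 libraries in C2C12 LPS (1.67-fold, log2 0.74 ± 0.10 SE, limma adjusted p = 0.000252), a call lost whichever single library of these groups was left out (adjusted p between 0.00131 and 0.00165), while Cd36 and Cpt1b also lay above control in all 3 LPS libraries. Acadl was lower in all 3 LPS-MIC-1 libraries than in LPS, a difference that did not pass (log2 -0.30, 95% interval -0.53 to -0.07).

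Acadvl was at 31.5, 30.7 and 31.6 FPKM in control, 30.0, 29.6 and 28.6 FPKM in LPS and 66.9, 65.9 and 67.3 FPKM in LPS-MIC-1. Control and LPS differed by less than 1 FPKM at their nearest libraries, and LPS-MIC-1 was 2.27-fold above LPS (log2 1.18 ± 0.04 SE, limma adjusted p = 2.52e-08). The LPS-MIC-1 libraries had an SD of 0.725 FPKM.

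Hadha was at 83.2, 82.1 and 80.3 FPKM in control, 64.5, 63.8 and 61.9 FPKM in LPS and 105, 107 and 118 FPKM in LPS-MIC-1, 3 groups without overlap. Hadhb was at 40.2, 35.9 and 39.0 FPKM in control, 20.8, 22.0 and 23.4 FPKM in LPS and 33.1, 36.4 and 39.2 FPKM in LPS-MIC-1, where control and LPS-MIC-1 overlapped. Both subunits fell in LPS, Hadha by 0.37 on the log2 scale and Hadhb by 0.80 (limma adjusted p = 0.000272 and 4.22e-05). Both rose from LPS to LPS-MIC-1, Hadha by 0.79 and Hadhb by 0.71 (limma adjusted p = 1.12e-06 and 3.85e-05). Their ratio was 2.14 ± 0.128 in control, 2.88 ± 0.226 with LPS and 3.04 ± 0.118 with LPS-MIC-1, with control below both other groups (2-sided exact permutation p = 0.1 each).

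For all C2C12 list counts, the shares of all genes tested were 18.6% higher and 19.3% lower in LPS against control. From LPS to LPS-MIC-1 they were 32.8% higher and 33.7% lower. Of the 36 other pathway genes, 32 were tested in C2C12. In LPS against control 7 rose, 12 fell and 13 did not pass, with Fabp4 34.8-fold higher and Lpl (lipoprotein lipase, 0.288 times), Pdk2 (0.233 times), Hadh (0.317 times), Acaa2 (0.432 times) and Cpt1a (0.424 times) lower. From LPS to LPS-MIC-1, 8 rose, 11 fell and 13 did not pass. Ucp2 fell from 434 ± 13.6 to 11.2 ± 6.21 FPKM, Fabp4 and Fabp5 fell, Acad11 fell to 0.199 times, and Pdk2 rose 11.5-fold. Decr1, the reductase for unsaturated chains, was listed at 0 in all 3 LPS libraries and at 11.9 ± 0.476 FPKM in LPS-MIC-1. Of the 23 respiratory chain genes, 1 rose (Cox6a2) and 13 fell in LPS (Sdha to 0.479 times), and 15 rose and none fell in LPS-MIC-1 against LPS, led by the muscle subunit Cox6a2 (11.1-fold) and Ndufa4 (3.67-fold).

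Of the remaining C2C12 lists, fatty acid synthesis was 1 higher and 7 lower of 9 in LPS against control, with Fasn at 0.284 and Scd1 at 0.298 times, and 3 higher and 3 lower in LPS-MIC-1 against LPS, with Me1 3.21-fold higher and Srebf1 at 0.103 times. Of the 8 peroxisomal genes tested, 1 rose and 4 fell in LPS (Abcd2 to 0.267 and Acaa1a to 0.338 times), and none rose and 5 fell in LPS-MIC-1 against LPS (Abcd2 to 0.0977 and Abcd3 to 0.300 times). Ppard (the gene of PPARδ) rose 2.52-fold in LPS and fell to 0.726 times from LPS to LPS-MIC-1, and Ppargc1b fell to 0.524 times in the latter.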

How the data were processed

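RNA was sequenced from 9 C2C12 and 9 gastrocnemius libraries, grouped by their labels. The authors quantified transcripts with kallisto, used tximport to sum them by gene, and deposited 1 FPKM value for each symbol and library; their processing notes name the build mm9. Of the muscle table's 11 unnamed columns, 9 hold per-sample values and were not used, nor were the authors' 6 tables of DESeq2 results (base means, log2 fold changes, errors, p-values). Read depth is unknown and no counting interval was given; relative depth came from steps among values under 0.2 FPKM.

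With limma 3.58.1 (R 4.3.3), log2(FPKM + 0.1) was modelled within each experiment as 3 group means over 9 libraries, using eBayes with a trend. The added 0.1 FPKM makes the log2 fold changes of low genes understated. The test covered genes whose mean FPKM exceeded 1, with Benjamini-Hochberg adjustment over all of them. The thresholds for the adjusted p were the study's, 0.001 for C2C12 and 0.05 for muscle; past 2-fold also needs an absolute log2 fold change over 1. Folds are ratios of mean FPKM; exact permutation tests are 2-sided.

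On simulated data with 200 genes changed by log2 2, LPS against control recovered 70% of them among 10851 genes in C2C12 (0 wrong calls) and 91% among 9471 in muscle (14 wrong). The simulated spread was normal and the same in all groups. The members in muscle changed by only log2 0.13 to 0.49 in that comparison, and recovery of changes of that size was not measured.

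Members and lists were chosen with earlier results of these data known. Named are all members, from each other list the 2 largest passing changes in LPS against control and in LPS-MIC-1 against LPS, the 3 most abundant genes of a marker list, and the 5 genes most like the members, except 1 gene that is not reported here; the pairs of related genes (Cpt1a, Fabp4, Fabp5 and Ucp2 beside members, Acadl beside Acadvl), the zero levels of Decr1 and the replicates' Lyz2, Krt8 and Fabp2 were picked after their values were seen. Gene neighbours come from RefSeq (GRCm38.p6), which matched all 10 members; since builds differ, no positions are given. Alternatives were pseudocounts of 1 and 0.01, a mean FPKM over 5, no filter (above 0 in 3 libraries), quantile normalization, scaling by median ratios, eBayes without trend, fits of just the 6 libraries compared, a replicate block and leaving out each library. Figures used matplotlib 3.10.9 in Python 3.11.15.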

Additional observations from a re-analysis of the deposited data

Results flagged for a closer look

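For several members the 2 groups compared did not overlap in either experiment and differed in opposite directions. The share of all genes that did so was not computed. Whether the 2 experiments differ was not tested, because their tables were normalized separately and the C2C12 control and LPS libraries carry macrophage genes. For LPS against control, the log2 changes in muscle and in C2C12 were 0.36 and -0.55 for Cpt2, 0.30 and -0.51 for Acadm, 0.21 and -0.09 for Acadvl, 0.18 and -0.37 for Hadha, and 0.21 and -0.80 for Hadhb. For LPS-MIC-1 against LPS they were -0.32 and 0.40 for Cpt2, 0.14 and -0.30 for Acadl, -0.30 and 0.38 for Acadm, -0.15 and 1.18 for Acadvl, -0.27 and 0.71 for Hadhb, 0.25 and -7.59 for Cd36, and -0.42 and 1.47 for Fabp3. For LPS-MIC-1 against control, Cd36 changed by 0.38 in muscle and -5.18 in C2C12. Not all of these changes passed the test. In LPS against control, Cpt2, Acadm and Acadvl did not pass in C2C12, nor did Hadhb in muscle. In LPS-MIC-1 against LPS, Cpt2, Acadl and Acadm did not pass in C2C12. The C2C12 change of Cd36 against control did not pass either.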

How the results depend on the processing

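Of 1023 recomputed member changes, 942 kept their direction and side of the threshold, 45 lost and 28 gained the call, and 8 changed sign. Ucp3 in muscle kept its call in every alternative run, with log2 changes between 3.27 and 3.38 against LPS. In C2C12 LPS against control, where 3 members passed, 5 did with quantile normalization and 7 with only the 6 libraries (2 of them past 2-fold), and between 1 and 6 when single libraries were left out (0 to 1 past 2-fold). In C2C12 LPS-MIC-1 against control the count of 3 ran up to 5 without LPS-MIC-1 replicate 3 (3 to 5 over the libraries left out), and 1 in place of 2 members passed 2-fold with quantile normalization. Cpt1b in C2C12 changed to 0.17 in LPS-MIC-1 against LPS without LPS-MIC-1 replicate 3 (-0.57 to 0.17 over the libraries left out). In muscle, quantile normalization moved the median of all genes by -0.12 (LPS-MIC-1 against LPS) and -0.10 (against control) on the log2 scale and the share of passing genes that rose from 50.1% to 39.0% and from 51.2% to 40.2%. It turned Hadha to -0.061 against LPS, and Cpt2 to -0.083, Acadm to -0.089 and Acadvl to -0.026 against control. Acadm against control was also at -0.017 without control replicate 1 and -0.067 without LPS-MIC-1 replicate 1 (-0.067 to 0.047 over all left out), and Hadha against LPS at -0.0037 without LPS-MIC-1 replicate 2 (-0.0037 to 0.042). None of these 8 changes passed either way. In muscle LPS-MIC-1 against control, Cpt1b passed as lower with quantile normalization (log2 -0.15, limma adjusted p = 0.00726) and without LPS-MIC-1 replicate 2 (0.0241). Fabp3 passed as higher there without control replicate 3 (log2 0.12, limma adjusted p = 0.0250). A mean FPKM over 5 tested fewer muscle genes, of which 3568 and 3639 passed in place of 5356 and 5544. The causes were not tested. Same-numbered replicates did not deviate together (r from -0.0757 to 0.0823), and a replicate block, which has fewer degrees of freedom, cost 3 calls: Hadha in C2C12 LPS against control (adjusted p by limma 0.00189), Cd36 in muscle LPS against control (0.0617) and Acadl in muscle LPS-MIC-1 against LPS (0.0842). Levels near 0 FPKM rest on few reads.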
